A study of Mus musculus with 8 samples.

Results

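The 10 genes described here encode the classical MHC class I molecules of the mouse and the machinery that makes and loads their peptides. They are the heavy chains H2-K1 and H2-D1, the light chain B2m, the peptide transporter subunits Tap1 and Tap2, the loading factors Tapbp and Tapbpl, the immunoproteasome subunits Psmb8 and Psmb9, and the transactivator Nlrc5. They were chosen by name, without use of their values, and all 10 were found among the 55487 genes of the count table and among the 15411 genes that passed the filter on low counts. RNA was sequenced from bone marrow-derived dendritic cells (BMDC), which were grown in GM-CSF from the marrow of wild-type C57BL/6J mice. The cultures lasted 10 days by the sample labels, and the methods of the study give 20 ng/ml GM-CSF and female donors 6 to 8 weeks old. The control group held 4 libraries of untreated BMDC (BMDC replicates 1 to 4). The other group held 4 libraries of BMDC that had been stained with a dye, co-cultured for 4 h with ferroptotic Jurkat cells and sorted for having engulfed them (BMDC-fer replicates 1 to 4). Jurkat cells are a human leukemia line of T-cell origin. Ferroptosis, an iron-dependent death by lipid peroxidation, was set off in them with 0.5 µM ML162 for 14 h. Staining, co-culture, uptake and sorting are not described for the untreated group, so their parts in any difference cannot be told apart. GM-CSF cultures of bone marrow hold macrophage-like cells and granulocytes beside dendritic cells, and in bulk RNA fewer cells of a type and less RNA per cell cannot be told apart.

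MHC class I molecules show peptides from inside the cell to CD8+ T cells, and dendritic cells also load them with peptides from engulfed material, which is called cross-presentation. Peptides are cut by the proteasome, in which the inducible subunits encoded by Psmb8 and Psmb9 can replace the constitutive subunits encoded by Psmb5 and Psmb6. TAP, a dimer of the Tap1 and Tap2 products, pumps the peptides into the endoplasmic reticulum. There tapasin (Tapbp) holds the heavy chain and B2m next to TAP until a fitting peptide is bound. Nlrc5 switches on the promoters of several of the genes described here, the heavy chains among them, and interferons raise most of those described.

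On mouse build GRCm38 with the GENCODE M21 annotation, 7 of the 10 genes lie in the MHC on chromosome 17. Tapbp stood at chr17:33915899-33929292 on the + strand and H2-K1 at chr17:33996017-34000347 on the - strand. The immunoproteasome and TAP genes formed a cluster of neighbours, with Psmb9 at chr17:34181987-34187764 on the - strand, Tap1 at chr17:34187553-34197225 on the + strand, Psmb8 at chr17:34197721-34201454 on the + strand and Tap2 at chr17:34203527-34216321 on the + strand. H2-D1 lay at chr17:35262730-35267499 on the + strand. The genes outside the MHC were B2m at chr2:122147686-122153083 on the + strand, Tapbpl at chr6:125223933-125231860 on the - strand and Nlrc5 at chr8:94434356-94527272 on the + strand. Psmb9 and Tap1 overlap head to head on opposite strands, and it is not given whether the counting used strand, so reads in that overlap cannot be assigned with certainty. Of the 50-base stretches of the longest H2-D1 transcript, 14.3% also occur on either strand in transcripts of other genes, and for H2-K1 the share was 8.11%. Tapbp shared 21% and Tap2 12.6%, mostly with an overlapping gene on the opposite strand, Gm19412 and Gm15821 respectively. The longest transcripts of B2m, Psmb9 and Nlrc5 shared none.

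RefSeq promoter sequences of GRCm38.p6 were on hand for 7 of the 10 genes, all but Tap2, Tapbpl and Nlrc5. Their starts are those of RefSeq. For H2-K1 this is the outermost GENCODE start given above, but for H2-D1, Psmb9 and Tap1 the starts differ. The H2-D1 window therefore lies inside the GENCODE span of the gene, and from their RefSeq starts Psmb9 and Tap1 do not overlap. The 250 bases before the RefSeq start are shown for the heavy chains and B2m, whose products form the surface complex. The 225 bases between the RefSeq starts of Psmb9 and Tap1 are shown because the windows of both genes cover them. Capitals mark matches to the NF-kB decamer and to the IRF core AANNGAAA on either strand. Sequences are on the strand of the gene, and the last one is on the strand of Tap1.
H2-K1, chr17:34000348-34000597, - strand: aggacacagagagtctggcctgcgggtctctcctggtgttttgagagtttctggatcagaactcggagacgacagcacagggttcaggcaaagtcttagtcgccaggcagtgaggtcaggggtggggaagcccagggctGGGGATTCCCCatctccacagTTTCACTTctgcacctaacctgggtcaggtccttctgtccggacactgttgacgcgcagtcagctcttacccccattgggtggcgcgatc
H2-D1, chr17:35262844-35263093, + strand: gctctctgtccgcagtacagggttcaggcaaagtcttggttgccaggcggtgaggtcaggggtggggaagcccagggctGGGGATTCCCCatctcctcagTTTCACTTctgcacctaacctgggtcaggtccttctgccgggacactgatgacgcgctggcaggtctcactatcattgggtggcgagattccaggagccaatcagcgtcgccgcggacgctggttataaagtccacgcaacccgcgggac
B2m, chr2:122147437-122147686, + strand: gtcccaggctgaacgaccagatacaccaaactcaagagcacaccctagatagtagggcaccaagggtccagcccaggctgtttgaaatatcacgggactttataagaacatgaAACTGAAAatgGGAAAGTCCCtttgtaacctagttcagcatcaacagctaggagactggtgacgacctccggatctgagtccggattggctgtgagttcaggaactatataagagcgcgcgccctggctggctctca
Between the RefSeq starts of Psmb9 and Tap1, chr17:34187331-34187555, + strand: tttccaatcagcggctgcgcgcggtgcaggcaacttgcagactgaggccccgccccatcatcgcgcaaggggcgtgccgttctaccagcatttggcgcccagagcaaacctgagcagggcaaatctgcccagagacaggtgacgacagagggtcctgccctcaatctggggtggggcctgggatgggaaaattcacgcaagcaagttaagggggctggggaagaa
The H2-K1 and H2-D1 promoters aligned over 190 bases, of which 166 (87.4%) were identical. The NF-kB decamer was matched in 3 of the 7 promoters, those of H2-K1, H2-D1 and B2m, and in 3.9% of all 32851 promoter windows of the table. The IRF core was matched in the same 3 promoters and in 21.3% of all windows; its letters were chosen after these windows had been seen. In H2-K1 the decamer began 111 bases before the start and the IRF core 90 bases before it, and in H2-D1 they began 171 and 150 bases before it. In B2m the order was the other way round, with the IRF core at 137 and the decamer at 126 bases before the start. TGACG, the core of the cyclic AMP response element, was matched in 5 of the 7 promoters against 17.8% of all windows, and CCAAT in 6 against 33.8%. GGGCGG was found in 3 of the 7 and in 32.7% of all, and TTCNNNGAA in 1, that of Psmb8, and in 7.02% of all. The windows of Psmb9 and Tap1 overlap, and every match counted for Psmb9 was the same site as a match counted for Tap1. The H2-K1 and H2-D1 promoters are also alike, as given above. The counts out of 7 are therefore not counts of independent promoters, and an excess over all windows was not tested. A match describes letters only, and no binding was measured.

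Total counts were between 39326672 and 50532209 per library, and the floor of 3 counts lay at 0.0607 to 0.0785 CPM, which covers counting error only. CPM here are counts scaled by library size and TMM factors. All 10 genes lay far above that floor in every library. Per length of exon (RPKM, CPM per 1000 bases of all annotated exons joined), B2m was the most abundant of them, at 2163 ± 432 in BMDC and 2884 ± 260.4 in BMDC-fer (SD, n = 4 libraries per group). H2-D1 followed with 673 ± 132 and 794 ± 40.7 RPKM, and H2-K1 with 405 ± 84.0 and 373 ± 26.3 RPKM. Tapbp stood at 66.4 ± 8.72 and 67.2 ± 12.2 RPKM and Psmb8 at 48.4 ± 4.44 and 38.9 ± 10.9 RPKM. Tap2, Psmb9 and Tap1 came next in BMDC, at 26.1 ± 2.60, 22.3 ± 5.10 and 20.9 ± 5.11 RPKM, and these neighbours did not differ beyond their spread. In BMDC-fer the same genes were at 19.3 ± 1.84, 14.7 ± 5.43 and 18.1 ± 6.32 RPKM, again within their spread. Tapbpl, a relative of tapasin that edits peptides, was at 10.6 ± 0.29 and 9.26 ± 0.50 RPKM. Nlrc5 was the least abundant, at 4.79 ± 1.42 RPKM in BMDC and 4.93 ± 2.67 in BMDC-fer. The joined exons measured 860 bases for B2m, with 1 annotated transcript, and 3660 for Psmb9, with 7. The order of genes by RPKM therefore depends on the annotation. In CPM, B2m and H2-D1 were at 1860 ± 372 and 1737 ± 341 in BMDC, and at 2481 ± 224 and 2048 ± 105 in BMDC-fer.

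The comparison of BMDC-fer with BMDC asked how engulfment of ferroptotic cells goes along with the expression of the class I pathway. Counts were tested in edgeR (quasi-likelihood, p adjusted by Benjamini-Hochberg over all tested genes), and calls needed both an adjusted p no higher than 0.05 and a log2 fold change of at least 0.58 in size. None of the 10 genes was called, against 9.38% of all tested genes (3.47% higher and 5.91% lower in BMDC-fer). DESeq2 called 0 of the 10 as well, against 14.7% of all tested genes. At an unadjusted p under 0.05 there were 2 of the 10 genes, B2m and Tap2, against 29.9% of all tested genes. The log2 fold changes lay between -0.60 and 0.42, with 4 genes higher and 6 lower and a median of -0.16, beside a median of 0.00069 over all tested genes. The BMDC-fer libraries lay below every BMDC library for 2 of the 10 genes, Tap2 and Tapbpl (11.6% of all tested genes), and above every BMDC library for none (11.3%). The 8 libraries may be technical or biological repeats, since nothing ties them to separate animals beyond the statement that samples were collected independently, so p-values measure the spread between these libraries. Same-numbered BMDC and BMDC-fer libraries deviated together, so the replicate number was also used as a block, although in replicates 3 and 4 libraries of different numbers correlated as well as those of the same number (r of 0.343 and 0.380 against 0.313 and 0.343). The block changed the call of 1 of the 10 genes, Psmb9, in a fit that called 13.0% of all tested genes (4.85% higher and 8.13% lower). A missed threshold does not show that a gene kept its level, and the 95% intervals are therefore given.

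**Figure D1:**
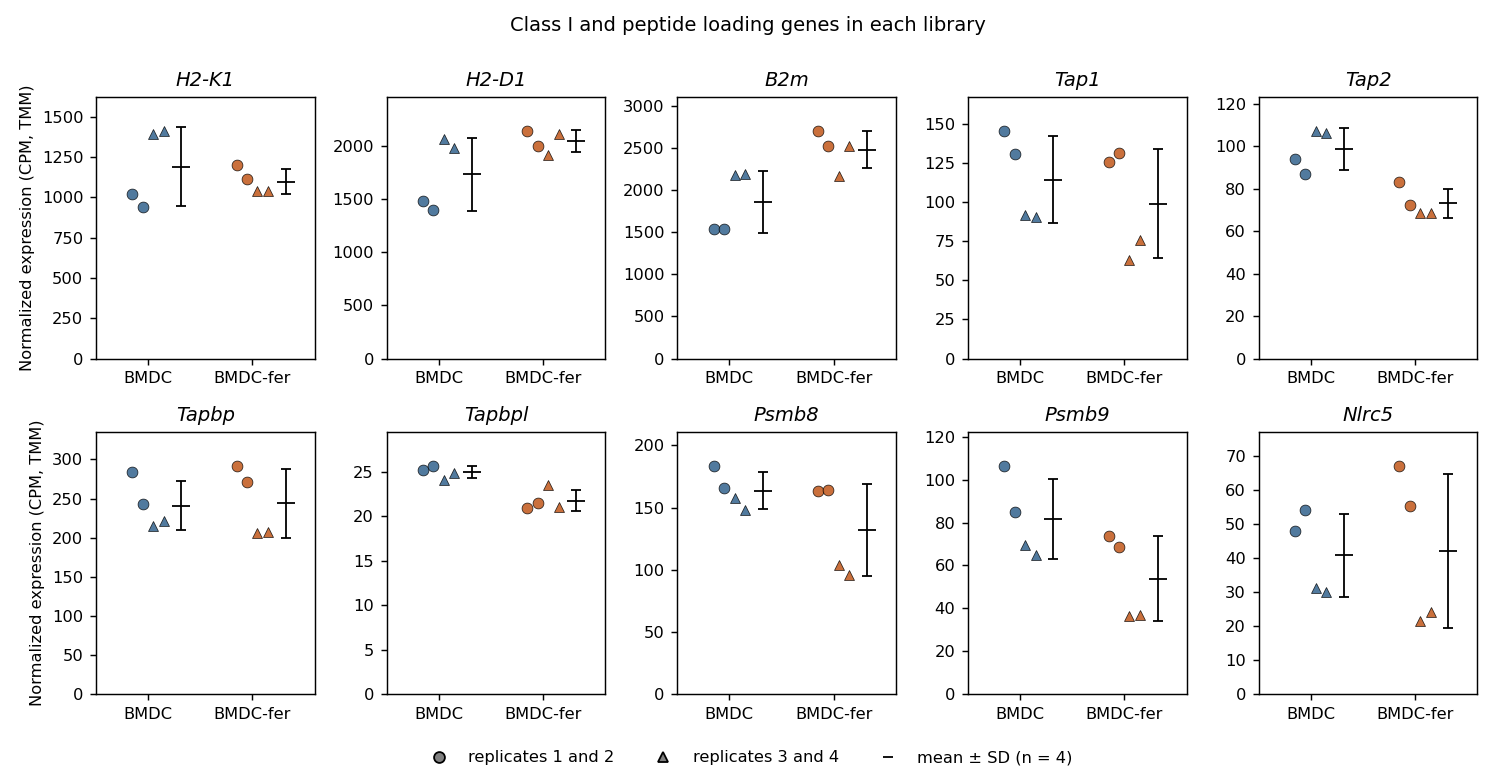
Normalized expression (CPM after TMM scaling, linear axes from 0) of the 10 genes in the 4 BMDC (blue) and 4 BMDC-fer (orange) libraries, with circles for replicates 1 and 2, triangles for replicates 3 and 4, and bars for the mean ± SD. The groups are fully apart for Tap2 and Tapbpl alone among the 10 genes. For Tap1, Tapbp, Psmb8, Psmb9 and Nlrc5 the triangles lie below the circles in both groups.

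The heavy chain H2-K1, which binds the peptide, showed no shared direction. It was at 1018, 940.2, 1392 and 1413 CPM in BMDC replicates 1 to 4 and at 1200.2, 1112, 1037 and 1038 CPM in BMDC-fer replicates 1 to 4. BMDC-fer was the higher of the same-numbered libraries in replicates 1 and 2 and the lower in replicates 3 and 4, and the BMDC-fer values lay inside the range of the BMDC values. The log2 fold change was -0.12 (SE 0.17, 95% interval -0.49 to 0.26, adjusted p = 0.66, edgeR).

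The heavy chain H2-D1 was at 1488, 1401, 2069.8 and 1988 CPM in BMDC and at 2148, 2002, 1923 and 2120.3 CPM in BMDC-fer. BMDC replicates 3 and 4 reached the level of the BMDC-fer libraries and BMDC replicates 1 and 2 stayed below it, so the groups overlapped. The log2 fold change was 0.24 (SE 0.16, 95% interval -0.13 to 0.61, adjusted p = 0.36, edgeR).

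B2m encodes beta-2 microglobulin, which every class I heavy chain needs at the surface. It was at 1534, 1543, 2175 and 2189 CPM in BMDC and at 2703, 2525, 2169 and 2524 CPM in BMDC-fer. BMDC-fer replicates 1, 2 and 4 were above all BMDC libraries, and replicate 3 was level with BMDC replicates 3 and 4. The log2 fold change was 0.42 (SE 0.17, 95% interval 0.02 to 0.81), with an unadjusted p of 0.0401 and an adjusted p of 0.145 (edgeR), and DESeq2 gave an adjusted p of 0.0798.

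Of the transport and loading genes, Tap2 and Tapbpl were lower in every BMDC-fer library, Tap1 was lower on average and Tapbp was level. Tap2 was at 94.0, 87.1, 107 and 106 CPM in BMDC and at 83.2, 72.5, 68.4 and 68.5 CPM in BMDC-fer. All 4 BMDC-fer libraries were below all 4 BMDC libraries. The log2 fold change of -0.43 (SE 0.11, 95% interval -0.68 to -0.18) had an adjusted p of 0.0401 (edgeR) and fell short of the fold threshold. Its adjusted p was 0.0603 under the block and 0.00672 in DESeq2. Of the 10 genes Tap2 alone passed the adjusted p without the block, as did 12.0% of all tested genes, and Psmb9 alone passed it with the block, as did 16.2%.

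Tap1, the other subunit of the transporter, was at 146, 131, 91.6 and 90.3 CPM in BMDC and at 126, 131, 63.2 and 76.1 CPM in BMDC-fer. Replicates 3 and 4 were below replicates 1 and 2 in both groups, and the groups overlapped. Its log2 fold change was -0.21 (SE 0.27, 95% interval -0.82 to 0.40, adjusted p = 0.634, edgeR).

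Tapasin hardly moved on average. Tapbp was at 285, 243, 214 and 221 CPM in BMDC and at 291, 271, 206 and 207 CPM in BMDC-fer. Its log2 fold change was 0.02 (95% interval -0.33 to 0.37, adjusted p = 0.951, edgeR), and the sign was negative with library sizes alone, at -0.08. Tapbpl was at 25.2, 25.7, 24.1 and 24.9 CPM in BMDC and at 21.01, 21.6, 23.5 and 21.02 CPM in BMDC-fer. The lowest BMDC library, at 24.1 CPM, was just above the highest BMDC-fer library, at 23.5 CPM. The log2 fold change of Tapbpl was -0.20 (SE 0.10, 95% interval -0.42 to 0.03, adjusted p = 0.213, edgeR).

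Both immunoproteasome subunits were lower in BMDC-fer than in the BMDC library of the same number in 4 of 4 pairs. Psmb9 was at 106, 85.0, 69.4 and 65.0 CPM in BMDC and at 73.6, 68.4, 36.5 and 37.0 CPM in BMDC-fer. BMDC-fer replicates 3 and 4 lay below all other libraries, whereas BMDC-fer replicates 1 and 2 lay within the BMDC range. Without the block the log2 fold change was -0.60 (SE 0.27, 95% interval -1.21 to 0.02, adjusted p = 0.18, edgeR). Under the block it was -0.65 (SE 0.13, adjusted p = 0.0255), and Psmb9 was then called lower.

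Psmb8 was at 183, 166, 157 and 148 CPM in BMDC and at 163, 164, 104 and 95.7 CPM in BMDC-fer. BMDC-fer replicates 3 and 4 were again the lowest libraries, and the groups overlapped through replicates 1 and 2. The log2 fold change was -0.31 (SE 0.19, 95% interval -0.76 to 0.13, adjusted p = 0.308, and 0.129 with the block, edgeR).

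The ratio of each inducible subunit to the constitutive one it replaces was then taken within each library, so that library scaling drops out. Length does not change within a gene and drops out of the difference between groups, so the ratios themselves are not ratios per length. The log2 ratio of Psmb8 to Psmb5 was 0.83, 0.91, 0.31 and 0.20 in BMDC and -0.02, 0.18, -0.56 and -0.60 in BMDC-fer. Every BMDC-fer library was below every BMDC library, and the difference within same-numbered libraries was between -0.87 and -0.73. The means were 0.56 ± 0.36 and -0.25 ± 0.39 (SD, n = 4), a difference of -0.81 with an exact two-sided permutation p of 0.0286, the smallest that 4 against 4 can give, and 0.0381 after adjustment over the 4 ratios compared.

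The log2 ratio of Psmb9 to Psmb6 was -0.46, -0.65, -1.66 and -1.61 in BMDC and -1.99, -1.95, -2.50 and -2.55 in BMDC-fer. The groups did not overlap here either. The means were -1.10 ± 0.63 and -2.25 ± 0.32, a difference of -1.15 (exact two-sided permutation p = 0.0286, adjusted 0.0381), and within same-numbered libraries the difference was between -1.53 and -0.84. As linear means, the ratio of Psmb9 to Psmb6 was 0.501 in BMDC and 0.215 in BMDC-fer.

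Over all 8 libraries the constitutive subunits were not called by edgeR. Psmb5 was at 112 ± 19.5 CPM in BMDC and 152 ± 10.0 in BMDC-fer, which gave a log2 fold change of 0.44 with an adjusted p of 0.0677, and Psmb6 was at 175 ± 41.4 and 245 ± 40.6 CPM, a log2 fold change of 0.49 with an adjusted p of 0.126 (edgeR). DESeq2 gave Psmb5 an adjusted p of 0.03. For Psmb5 all BMDC-fer libraries (145 to 166 CPM) were above all BMDC libraries (88.4 to 129 CPM), as for 11.3% of all tested genes. For Psmb6 the groups overlapped. In replicates 1 and 2 alone both were higher, Psmb5 by 0.71 and Psmb6 by 1.00 on the log2 scale (adjusted p = 0.00917 and 0.00302, edgeR), whereas in replicates 3 and 4 alone they stood at 0.23 and 0.03 (adjusted p = 0.0117 and 0.762). In the latter pair Psmb8 and Psmb9 were lower, as given below. The third inducible subunit, Psmb10, is encoded outside the MHC and was measured for comparison with Psmb7, the subunit it replaces. The log2 ratio of Psmb10 to Psmb7 was 0.39 ± 0.21 in BMDC and 0.49 ± 0.33 in BMDC-fer, the groups overlapped, and the difference of 0.10 had an exact two-sided permutation p of 0.571. Psmb10 itself was at 95.1 ± 6.93 and 108 ± 30.7 CPM (log2 fold change 0.18, adjusted p = 0.557, edgeR). Paired by replicate number, an exact test of 4 differences cannot go below 0.125, which is what the ratios of Psmb8 to Psmb5 and of Psmb9 to Psmb6 gave.

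The ratio of the heavy chains H2-K1 to H2-D1 varied little within a group. Its log2 value was -0.55, -0.58, -0.57 and -0.49 in BMDC and -0.84, -0.85, -0.89 and -1.03 in BMDC-fer. No BMDC-fer library reached the BMDC range, although the levels of both genes overlapped between the groups. As linear means, H2-K1 counts were 0.685 ± 0.018 of H2-D1 counts in BMDC and 0.536 ± 0.032 in BMDC-fer. The log2 difference was -0.36 (exact two-sided permutation p = 0.0286, adjusted 0.0381; paired, 0.125). Of the 50-base stretches of the longest H2-K1 transcript, 6.52% also occur in H2-D1, and how reads that map to both genes were counted is not given.

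**Figure D2:**
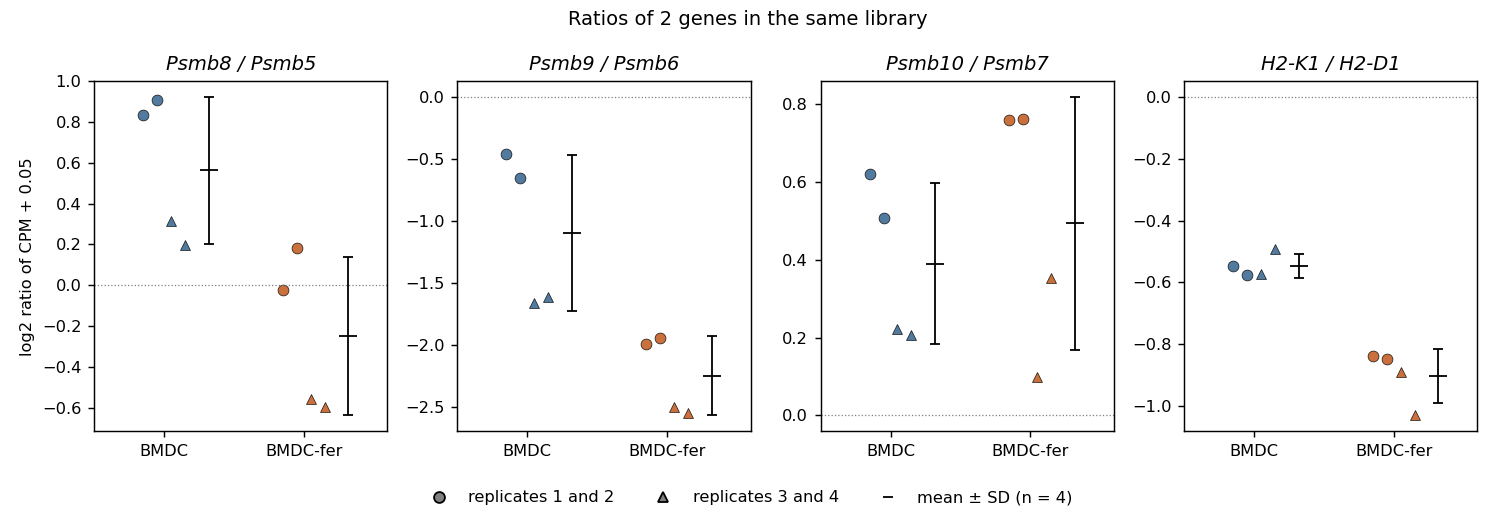
log2 ratio of (CPM + 0.05) of a pair of genes in the same library, with circles for replicates 1 and 2, triangles for replicates 3 and 4, and bars for the mean ± SD (n = 4). Each panel has its own axis. The BMDC-fer libraries lie below all BMDC libraries for Psmb8 to Psmb5, Psmb9 to Psmb6 and H2-K1 to H2-D1, and the groups overlap for Psmb10 to Psmb7.

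Nlrc5, the transactivator of class I genes, followed the replicate number more than the group. It was at 47.8, 54.0, 31.0 and 29.9 CPM in BMDC and at 66.9, 55.3, 21.5 and 23.9 CPM in BMDC-fer. BMDC-fer held both the highest and the lowest libraries. Over all libraries the log2 fold change was 0.04 (SE 0.39, 95% interval -0.84 to 0.93, adjusted p = 0.952, edgeR), with the sign turning to -0.08 under the block and to -0.07 with library sizes alone.

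The libraries of each group fell into a pair of replicates 1 and 2 and a pair of replicates 3 and 4, and the fold changes of the class I genes differed between these pairs. Over all genes, a library's deviation from its group mean had r between 0.313 and 0.446 with that of the same-numbered library of the other group, between 0.186 and 0.380 with that of the other number in the same replicate pair, and between -0.388 and -0.279 with those of the other replicate pair; genes are not independent of each other. What separates the pairs is not given in the labels. The split was taken from earlier results of these same data, so p-values of tests that use it are not those of a planned factor. The effect in replicates 3 and 4 minus that in replicates 1 and 2 was tested as an interaction of group and replicate pair, and 7 of the 10 genes passed an adjusted p of 0.05, all with a negative sign, beside 37.8% of all tested genes in either direction. They were H2-K1, H2-D1, B2m, Tap2, Psmb8, Psmb9 and Nlrc5, so Tap1, Tapbp and Tapbpl did not pass.

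For Nlrc5 the log2 fold change in replicates 1 and 2 was 0.27, against -0.41 in replicates 3 and 4, a difference of -0.69 (adjusted p = 0.00936, edgeR). For H2-K1 it was 0.25 and -0.42, a difference of -0.67 (adjusted p = 0.00265). B2m stood at 0.77 and 0.12, a difference of -0.66 (adjusted p = 0.00563), and H2-D1 at 0.53 and 0.01, a difference of -0.53 (adjusted p = 0.0117). Within BMDC, the heavy chains and B2m were higher in replicates 3 and 4 than in replicates 1 and 2, by 0.52 for H2-K1, 0.49 for H2-D1 and 0.50 for B2m (log2), whereas the same differences within BMDC-fer were -0.16, -0.04 and -0.16.

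Among the genes that were lower, the log2 fold change in replicates 1 and 2 and then in replicates 3 and 4 was -0.42 and -0.86 for Psmb9, -0.09 and -0.60 for Psmb8, and -0.21 and -0.63 for Tap2. Their differences of -0.44, -0.52 and -0.42 had adjusted p of 0.0459, 0.00755 and 0.0208 (edgeR). Psmb9 and Psmb8 were lower in replicates 3 and 4 in both groups, by 0.51 and 0.19 on the log2 scale in BMDC and by 0.95 and 0.71 in BMDC-fer. A fit within a replicate pair rests on the spread between the 2 libraries of each group in that pair. Fitted alone, replicates 1 and 2 gave 1 call among the 10 genes, B2m higher. In that fit 19.4% of all tested genes were called in either direction, and 1285 of 15749 were called higher. Replicates 3 and 4 gave 3 calls, Tap2, Psmb8 and Psmb9 lower. There 35.7% of all tested genes were called in either direction, and 2825 of 15693 were called lower.

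The interaction depended on scaling. With library sizes alone, which moved the median interaction of all genes to 0.209, only H2-K1 at -0.47 and B2m at -0.45 passed (adjusted p = 0.0122 and 0.0298, edgeR), and under the block all 7 passed. The share of all tested genes that passed in these fits, or in those with a library left out, is not given here. A change in these counts can therefore not be told from a change over all genes. When each library was left out in turn, H2-K1, B2m, Psmb8 and Nlrc5 passed in all 8 fits, H2-D1 in 6, and Tap2 and Psmb9 in 2 each. Tap1, which did not pass with all libraries, passed in 1 of these fits.

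**Figure D3:**
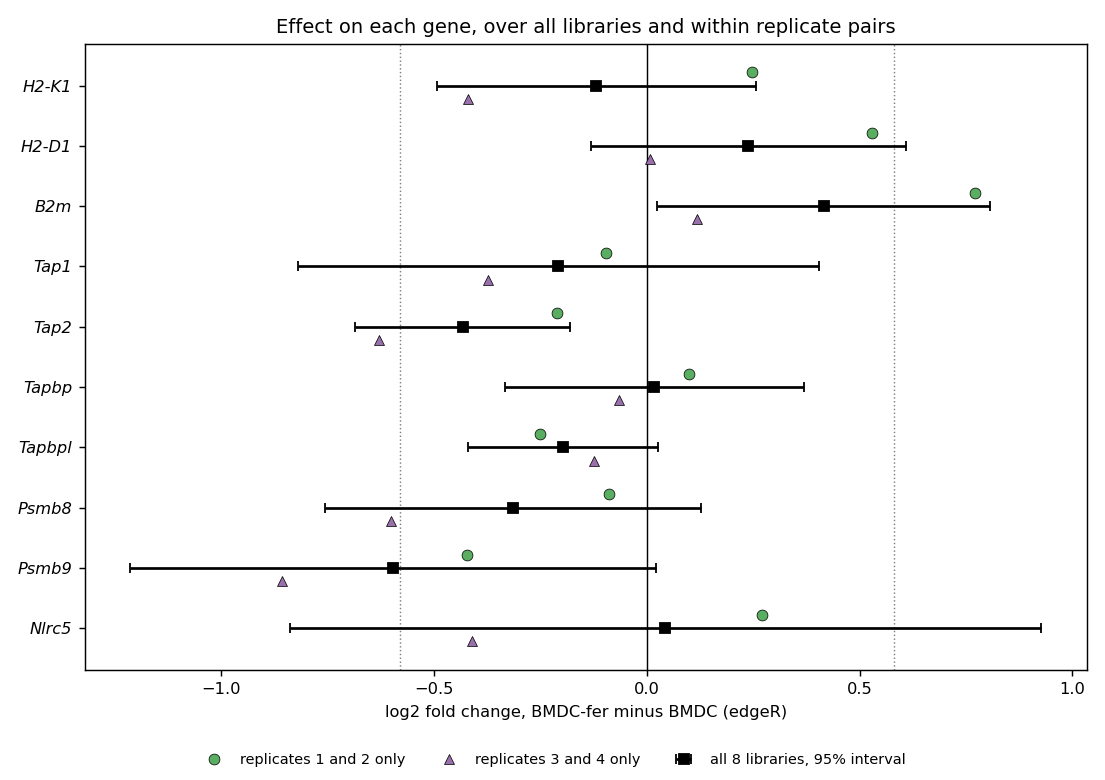
log2 fold change of BMDC-fer against BMDC (edgeR) for the 10 genes. Squares with bars are the value over all 8 libraries with its 95% interval, circles are replicates 1 and 2 alone, triangles are replicates 3 and 4 alone, and dotted lines mark 0.58 in each direction. The triangle lies left of the circle for every gene but Tapbpl, and the intervals of B2m and Tap2 alone leave out 0.

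Profiles over the 8 libraries were compared by the root mean square difference of log2 CPM after each gene's mean was subtracted. Among the 10 genes, H2-D1 and B2m were the closest, at 0.103, and Psmb8 was the closest to Tap1, at 0.194. The closest of the 10 to Nlrc5 was Tap1, at 0.242. Among all 12735 genes with a mean of at least 1 CPM, the nearest to Nlrc5 were Ddx60 (0.126), Pilra (0.151) and Slc2a6 (0.157). The nearest to Tap1 were Oas1c (0.0955), Tmem238 (0.0994) and Pld4 (0.103), and the nearest to H2-K1 were Zc3h15 (0.0358), Mrps30 (0.0367) and Ubxn1 (0.0425). These are descriptions over 8 libraries that share the split between replicate pairs.

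The chaperones of peptide loading, which fold the heavy chain and trim its peptides, held no called gene among 10 tested, against 9.38% of all tested genes. Their median log2 fold change was 0.05. The ends of the list were Calr and Sec61b. Calr, the calreticulin of the loading complex, was at 967, 1169.9, 691 and 631 CPM in BMDC and at 1227, 1418, 1095 and 1233 CPM in BMDC-fer, with a log2 fold change of 0.52 (adjusted p = 0.132, edgeR). Sec61b, a subunit of the endoplasmic reticulum translocon, was at 196 ± 11.6 and 153 ± 31.8 CPM, a log2 fold change of -0.36 (adjusted p = 0.154, edgeR).

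Among 14 proteasome partners and peptidases, 1 was called higher and none lower, with a median log2 fold change of 0.23. Here and in the next lists these counts stand beside 3.47% higher and 5.91% lower over all tested genes, and beside 4.85% and 8.13% with the block. Thop1, a cytosolic peptidase that destroys class I peptides, was at 18.0, 18.0, 11.9 and 11.1 CPM in BMDC and at 25.7, 25.3, 22.9 and 23.9 CPM in BMDC-fer. All BMDC-fer libraries were higher, by 0.73 on the log2 scale (SE 0.18, adjusted p = 0.0371, edgeR), and the call was lost in 6 of 8 fits with a library left out (all but those without BMDC replicate 1 or 2). The change was larger in replicates 3 and 4, at 1.03, than in replicates 1 and 2, at 0.51 (adjusted p of the difference = 0.0125).

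Among 23 regulators and receptors upstream of class I transcription, 2 were called higher and 2 lower (3.47% and 5.91% of all tested genes), and the median was -0.10. Jak2, a kinase of the interferon gamma receptor, was between 371 and 463 CPM in BMDC and between 76.8 and 142 CPM in BMDC-fer, with a log2 fold change of -2.03 (SE 0.20, adjusted p = 0.00207, edgeR). The receptor chains Ifngr2, for interferon gamma, and Ifnar1, for type I interferon, both rose by 0.59 on the log2 scale (adjusted p = 0.0343 and 0.0253). The other chains of these receptors, named after their values were seen, were not called. Ifngr1 was at -0.52 (adjusted p = 0.055 in edgeR and 0.0159 in DESeq2), with every BMDC-fer library below every BMDC library. Ifnar2 was at 0.16 (adjusted p = 0.35, edgeR). Ifnar1 was between 94.3 and 128 CPM in BMDC and between 146 and 182 CPM in BMDC-fer, and Ifngr2 was between 70.8 and 109 and between 126 and 136 CPM. Nfkb1, which encodes the p50 subunit of NF-kB, fell by 0.69 on the log2 scale (adjusted p = 0.047), from 182 ± 28.4 to 113 ± 27.2 CPM. The call of Jak2 stood in all 8 fits with a library left out, whereas those of Nfkb1, Ifngr2 and Ifnar1 were lost in 7, 6 and 5 of them. With the replicate block 4 were called lower (8.13% of all tested genes). The additional genes on that side, named after their values were seen, were Atf1 and Ciita, at -0.67 and -1.56 (adjusted p = 0.0344 and 0.0287).

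Among 14 genes of cross-presentation, 1 was called higher and 1 lower (3.47% and 5.91% of all tested genes), with a median of 0.02. Tfeb, a transcription factor of lysosome genes that limits cross-presentation in dendritic cells, was at 33.5, 39.8, 36.5 and 36.7 CPM in BMDC and at 54.4, 62.8, 57.5 and 61.1 CPM in BMDC-fer. Every BMDC-fer library was above every BMDC library, and the log2 fold change was 0.69 (SE 0.10, adjusted p = 0.00577, edgeR). In replicates 1 and 2 alone it was 0.68, and in the other pair 0.71. The Tfeb call stood in all 8 fits with a library left out. Rab43, a small GTPase of cross-presenting dendritic cells, was at 5.92 ± 1.24 and 3.56 ± 0.39 CPM, a log2 fold change of -0.73 with an adjusted p of 0.0481 (0.0592 with the block), and its call was lost in each of those 8 fits. With the block, Clec9a was called higher at 1.16 (adjusted p = 0.0266) and Wdfy4 lower at -1.11 (adjusted p = 0.0229), both named after their values were seen.

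Of the non-classical class I and class I-like genes, 5 of 17 tested were called lower, or 4 with the block (5.91% and 8.13% of all tested genes), and none higher, with a median of -0.14. Whether they differ from the classical genes was not tested. H2-Q10 changed by -1.96, H2-Q6 by -1.60, H2-Q7 by -1.55 and H2-Q5 by -1.26 (log2, adjusted p = 0.00366, 0.0141, 0.0112 and 0.0319, edgeR). H2-Q6 was between 48.1 and 82.7 CPM in BMDC and between 15.1 and 33.4 CPM in BMDC-fer. Between 19.7% and 35.4% of the 50-base stretches in the longest transcripts of these H2-Q genes also occur in other genes, so the values of single H2-Q genes are uncertain. With the block, H2-Q5 was not called (adjusted p = 0.0691), and its call was lost in 5 of 8 fits with a library left out. Fcgrt encodes the heavy chain of the neonatal Fc receptor, which also pairs with B2m. It was at 54.8, 39.5, 27.7 and 27.6 CPM in BMDC and at 19.8, 20.1, 13.8 and 12.2 CPM in BMDC-fer, with a log2 fold change of -1.18 (adjusted p = 0.0267). Its call was lost without BMDC-fer replicate 2, 3 or 4. Over all 8 fits with a library left out, its log2 fold change lay between -1.30 and -0.94.

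**Figure D4:**
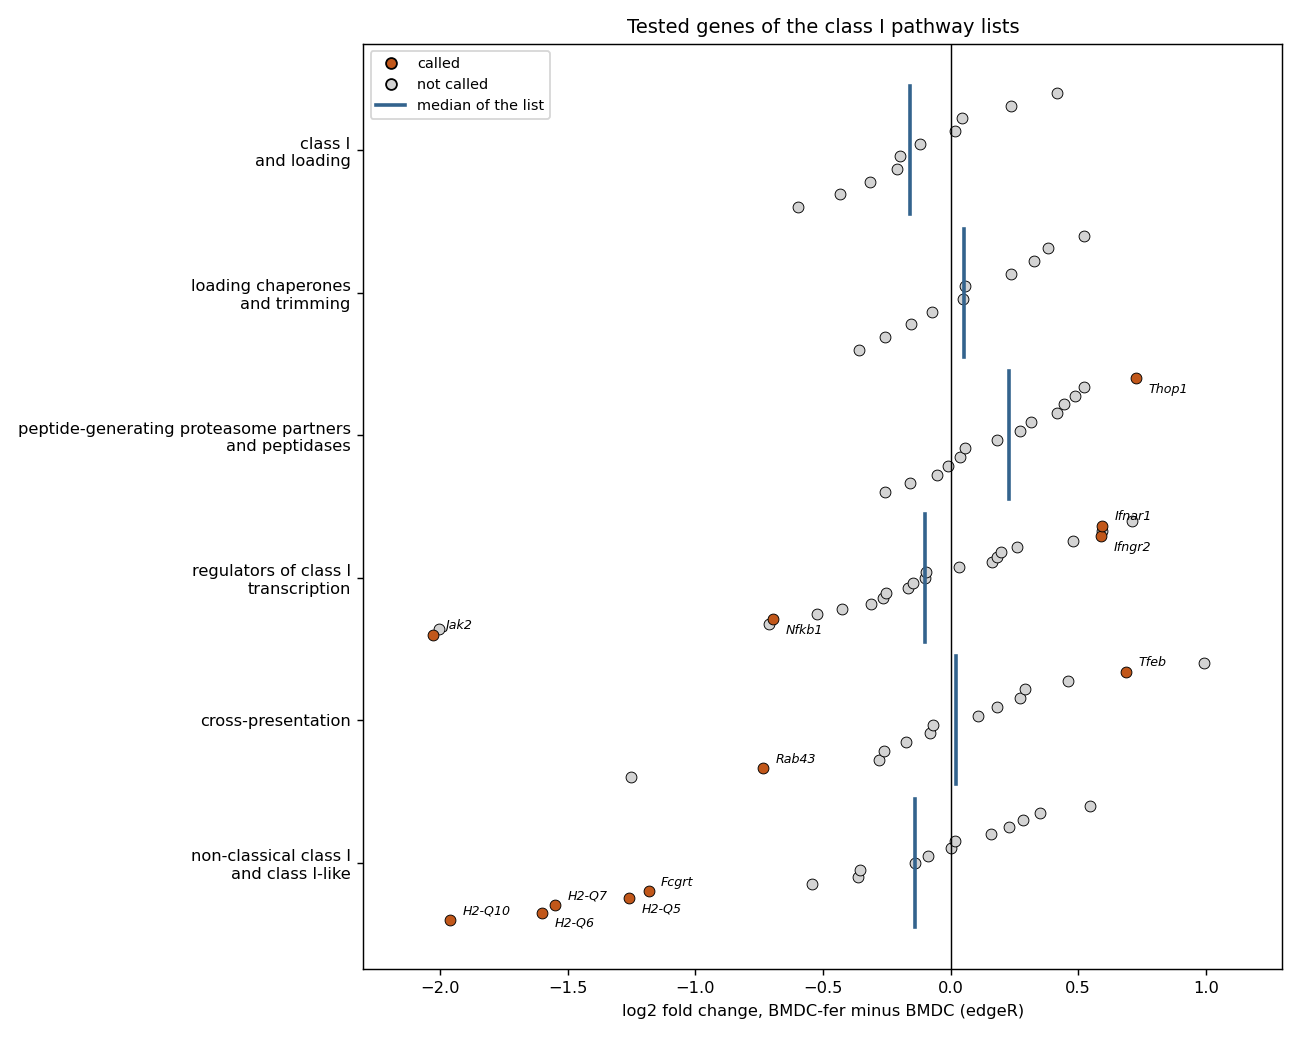
log2 fold change of BMDC-fer against BMDC (edgeR) for every tested gene of the 6 lists. Each point is a gene, filled in orange where it was called, and the blue line is the median of the list. The 10 class I and loading genes hold no called gene, and the 5 called genes of the non-classical list all lie on the lower side.

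Markers of cell types that GM-CSF cultures hold were read beside these results. Of 8 dendritic cell markers all were detected, and their summed level was between 7597 and 17535 CPM in BMDC and between 3379 and 8525 CPM in BMDC-fer. Flt3 and Ccr7 were called lower, and 7 of the 8 with the block (5.91% and 8.13% of all tested genes). The marker not called with the block was Itgax, which encodes CD11c and was at 1111 ± 294 and 1033 ± 247 CPM. Of 8 macrophage markers, 1 (Adgre1) was called lower and none higher (5.91% and 3.47% of all tested genes). The 7 that were not called all had positive log2 fold changes, between 0.40 and 0.57, and the median of the list was 0.48. Their sum with Adgre1 was between 2491 and 3445 CPM in BMDC and between 2949 and 4632 CPM in BMDC-fer. The 8 neutrophil markers summed to between 44.8 and 261 CPM in BMDC and between 13.9 and 43.7 CPM in BMDC-fer. Of these, 4 were called lower, and all 8 with the block (5.91% and 8.13% of all tested genes). Markers of mast cells and basophils summed to between 32.5 and 64.9 CPM and between 14.5 and 33.0 CPM. The T cell markers, which would also show mouse reads assigned from the human T-cell line, summed to between 3.20 and 11.8 CPM in BMDC and between 3.87 and 8.38 CPM in BMDC-fer. Of 8 such markers 3 were tested and 1, Lck, was called lower (5.91% of all tested genes). The B cell markers were between 0.369 and 1.44 CPM and between 0.405 and 0.602 CPM. The part of these shifts in the class I values was not tested.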

How the data were processed

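The authors made mRNA libraries after oligo(dT) enrichment, aligned the filtered reads by HISAT2, counted reads on genes by featureCounts in Rsubread and deposited the raw counts, which entered the tests as they are. The submitters' processing notes name build mm10, CASAVA and DESeq2; versions, annotation, strand setting and treatment of multimapping reads are not given in the sources used here. Of 55487 identifiers, 55141 had a symbol in GENCODE M21, and 133 of 136 listed symbols were found. Counts were fitted in R 4.3.3 with edgeR 4.0.16 (TMM, filterByExpr with a count minimum of 10, 0.236 CPM), with groups taken from the sample titles. DESeq2 1.42.0 was an alternative. CPM are TMM-scaled, ratios used CPM + 0.05, and the scripts were tested on simulated data. No pair of replicates agreed within sampling noise. Chi-square per gene was 8.97 to 40.3 within replicates 1 and 2 or 3 and 4, and 136 to 341 across them. The p-values of the interaction and of fits within a replicate pair rest on the smaller spread within pairs. Same-numbered libraries come from shared numbers in the labels, and each such pair correlated at 0.313 or more (other numbers of the same replicate pair, 0.186 to 0.380). The genes, lists and tests were chosen with earlier results of these data known. From each list the called genes were named, or else the highest and lowest gene, with the 3 profiles closest to Nlrc5, Tap1 and H2-K1. Promoter sequences are from RefSeq. The values of 1 listed regulator are not reported here.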

Additional observations from a re-analysis of the deposited data

Results flagged for a closer look

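For 7 of the 10 class I genes, the fold change of BMDC-fer against BMDC in replicates 3 and 4 was not that in replicates 1 and 2 (edgeR's interaction test, adjusted p of 0.05 or less, as did 37.8% of all tested genes). The difference in log2 fold change was -0.67 for H2-K1, -0.53 for H2-D1, -0.66 for B2m, -0.42 for Tap2, -0.52 for Psmb8, -0.44 for Psmb9 and -0.69 for Nlrc5. Among the proteasome subunits taken for comparison it was -0.48 for Psmb5, -0.98 for Psmb6, -0.36 for Psmb7 and -0.54 for Psmb10. Among other genes named in the text it was -0.58 for Sec61b, -0.58 for Atf1, -0.38 for Ifngr1, -1.60 for H2-Q6, -1.39 for H2-Q7, -1.65 for H2-Q5 and -1.61 for Ccr7. It was positive for Calr (0.51), Thop1 (0.52), Ifngr2 (0.53), Ciita (1.41) and Wdfy4 (0.94). The split into replicate pairs was taken from earlier results of these same data. What separates the replicate pairs is not given in the labels, and a cause was not tested.

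In 1 of 80 groups of 4 values, a library stood far from the other 3. The CPM of Sec61b in BMDC replicate 2 was 179, against 200.3 to 204 in the other BMDC libraries, a gap of 0.856 of the group's range above the 95% critical value of Dixon's test. Chance flags about 1 in 20 such groups, here 4.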

How the results depend on the processing

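Over all genes, 1445 were called by edgeR, 2261 by DESeq2, 3062 in replicates 1 and 2 alone, 5604 in replicates 3 and 4 alone, and between 565 and 1440 with a library left out. With library sizes alone 300 genes were called higher and 1179 lower, against 534 and 911 after TMM, and the median log2 fold change moved to -0.09. None of the 10 class I genes was called, with 0 also in every fit that left a library out. There was 1 call with the replicate block (Psmb9), 1 with no fold threshold (Tap2), 1 in replicates 1 and 2 (B2m) and 3 in replicates 3 and 4. The interaction held for 7 genes, for 2 with library sizes alone and for 4 to 7 with a library left out (4 without BMDC replicate 3 and without BMDC-fer replicate 3). These counts are over all 10 genes, and Tap1 is among them in 1 fit with a library left out. The interaction fit with the replicate block, which kept 7, was added after the data were seen. The difference between groups in the log2 ratio of H2-K1 to H2-D1 was -0.28 within the first replicate pair (1 and 2) and -0.43 within the other. With a library left out, such differences are values without a test, since 3 against 4 cannot go below p = 0.0571 in the exact test; they lay between -0.96 and -0.70 for Psmb8 to Psmb5, between -1.34 and -0.94 for Psmb9 to Psmb6 and between -0.38 and -0.31 for H2-K1 to H2-D1. Signs turned for H2-K1 in replicates 1 and 2 (0.25), for Psmb10 in replicates 3 and 4 (-0.12), for Tapbp with library sizes alone (-0.0835), in replicates 3 and 4 (-0.0653) and with a library left out (-0.0703 to 0.113), for Psmb7 in the same settings (-0.0499, -0.13, and -0.0207 to 0.0886), and for Nlrc5 with library sizes alone (-0.0739), with the replicate block (-0.0808), in replicates 3 and 4 (-0.41) and with a library left out (-0.27 to 0.26). Tapbp and Nlrc5 turned without BMDC replicate 3 or 4 and without BMDC-fer replicate 1 or 2. In the lists of chaperones and of proteasome partners and peptidases the block changed no call. The causes were not tested. The floor covers counting error only.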
